A study of Mus musculus with 2 samples.

Results

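A set of 74 genes named for kinesins, centromere proteins and the mitotic spindle were compared between ES-D3 mouse embryonic stem cells grown on a 6-well plate and in a microfluidic chamber. Members were the probe sets with 1 gene symbol that matched the kinesins (Kif followed by a number), the centromere proteins (Cenp followed by a letter) or any of a fixed set of mitotic genes (Ccnb1, Ccnb2, Ccna2, Cdk1, Cdc20, the Aurora kinases, Bub1, Bub1b, Plk1, Plk4, Ttk, Tpx2, Ndc80, Nuf2, Hmmr, G2e3, Birc5 and Top2a). The rule gave 78 probe sets of 74 genes, out of 23370 genes on the array. ES-D3 (CRL-1934) is an established pluripotent line of strain 129S2/SvPas, with no added transgene named in the labels. The plate group and the microchamber group each had 1 array of total RNA, from cells seeded at 20000 per square centimetre and grown for 3 days. Both groups were grown in 15% serum with 1000 U of leukaemia inhibitory factor, and the chamber was run with minimal perfusion. Values are log2 RMA values of Affymetrix Mouse Gene 2.0 ST arrays, and every difference is microchamber minus plate in log2 units.

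With 1 array a group there was no test, and no difference given here has a replicate error. The only spread in these data comes from genes with 2 probe sets. Among 801 such genes, the differences of the paired probe sets scattered around their gene's mean with a standard deviation of 0.21, which says nothing of the spread between cultures. The stem cell markers had median levels of 10.37 (plate) and 10.56 (chamber) over 12 genes, all past the filter on low signal. The weakest were Dppa3 (6.16 and 6.00, plate first) and Dppa5a (6.57 and 6.27). They went both ways, with 4 lower (33.3%, against 52.3% of all genes) and 8 higher, from Tdgf1 at -0.82 to Sall4 at 0.44. Of 15 fibroblast or feeder markers, 11 passed the filter on low signal and 9 of these were lower in the chamber (81.8%, against 52.3% of all genes). The 11 had a median difference of -0.35. At least 0.25 log2 units lower were 6 (54.5%, against 15.0% of all genes), and 2 were at least that much higher (18.2%, against 12.3%). Summed log2 values over all 15 markers were 95.98 (plate) and 93.99 (chamber), while Dcn, Fap, Postn and Lum lay below the filter on both arrays. The part of such cells in the differences below was not tested.

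Kinesins are motors that walk along microtubules. Some carry vesicles, organelles and ciliary cargo between divisions, while others build and pull apart the spindle, and transcripts of the second kind rise in G2 and mitosis of cycling cells. Centromere proteins mark the site on each chromosome where the kinetochore forms, and the spindle checkpoint delays anaphase until every kinetochore is attached. Embryonic stem cells divide fast with short gap phases, so mitotic genes are strongly expressed in them. In bulk RNA, fewer cells in G2 or mitosis and less RNA per cell cannot be told apart.

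Promoters of mitotic genes often carry a pair of short elements, and a few windows are shown here because their content differed between the roles. TTTGAA is the core of the cell cycle genes homology region (CHR), which the DREAM and MuvB complexes bind, and CCAAT is the box bound by NF-Y. Both were searched on both strands in RefSeq windows of 300 bases (GRCm38), from 250 bases before to 50 bases after the annotated start. Kif23, Bub1b, Kif1a, Cenpb and G2e3 had the largest absolute difference of their roles, and Ccnb2, a B-type cyclin, was added after its matches were seen. Capitals mark every match, as TTTGAA or its reverse complement and as CCAAT or its reverse complement, in the 5′ to 3′ direction of the gene. Kif23 lies at chr9:61946750-61947049, minus strand, Bub1b at chr2:118597961-118598260, plus strand, and Ccnb2 at chr9:70421505-70421804, minus strand. The upstream of the 2 windows of Kif1a lies at chr1:93101825-93102124, minus strand, Cenpb at chr2:131180018-131180317, minus strand, and G2e3 at chr12:51347980-51348279, plus strand.
Kif23: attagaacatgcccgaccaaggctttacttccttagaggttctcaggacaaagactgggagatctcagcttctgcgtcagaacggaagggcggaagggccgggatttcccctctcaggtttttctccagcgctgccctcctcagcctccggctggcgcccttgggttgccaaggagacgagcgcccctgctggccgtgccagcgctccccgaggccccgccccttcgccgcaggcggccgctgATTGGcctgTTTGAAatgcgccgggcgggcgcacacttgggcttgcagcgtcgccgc
Bub1b: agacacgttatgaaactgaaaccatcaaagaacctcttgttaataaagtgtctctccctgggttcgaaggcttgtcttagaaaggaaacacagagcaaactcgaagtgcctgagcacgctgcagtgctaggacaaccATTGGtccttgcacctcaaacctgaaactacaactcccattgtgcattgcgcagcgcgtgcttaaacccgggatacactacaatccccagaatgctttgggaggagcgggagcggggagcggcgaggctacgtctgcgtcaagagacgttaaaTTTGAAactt
Ccnb2: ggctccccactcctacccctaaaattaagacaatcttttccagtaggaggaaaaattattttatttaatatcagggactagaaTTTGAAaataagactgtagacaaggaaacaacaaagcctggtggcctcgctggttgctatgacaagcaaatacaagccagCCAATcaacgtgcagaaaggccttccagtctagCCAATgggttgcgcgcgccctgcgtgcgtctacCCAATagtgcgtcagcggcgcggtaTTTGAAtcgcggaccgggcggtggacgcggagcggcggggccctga
Kif1a: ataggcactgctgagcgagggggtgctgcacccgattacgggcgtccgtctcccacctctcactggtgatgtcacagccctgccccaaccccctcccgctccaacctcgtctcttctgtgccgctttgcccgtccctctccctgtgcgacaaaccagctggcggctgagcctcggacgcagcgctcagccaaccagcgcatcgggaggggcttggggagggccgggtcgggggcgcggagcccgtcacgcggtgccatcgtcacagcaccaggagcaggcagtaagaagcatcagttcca
Cenpb: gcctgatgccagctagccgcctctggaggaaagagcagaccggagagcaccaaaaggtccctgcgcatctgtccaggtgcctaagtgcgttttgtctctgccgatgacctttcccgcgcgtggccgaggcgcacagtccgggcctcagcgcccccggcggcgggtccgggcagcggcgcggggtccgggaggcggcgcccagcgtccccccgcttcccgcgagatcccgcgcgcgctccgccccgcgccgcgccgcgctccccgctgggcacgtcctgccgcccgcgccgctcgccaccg
G2e3: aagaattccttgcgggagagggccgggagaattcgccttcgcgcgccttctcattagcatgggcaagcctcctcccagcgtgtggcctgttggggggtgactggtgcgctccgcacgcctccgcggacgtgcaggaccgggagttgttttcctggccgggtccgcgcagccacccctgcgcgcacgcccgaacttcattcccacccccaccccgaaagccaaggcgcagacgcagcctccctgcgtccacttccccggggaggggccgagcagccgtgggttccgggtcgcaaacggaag

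Kif23 holds a reversed CCAAT box just before a TTTGAA at its start, Bub1b holds 1 match of each, and Ccnb2 holds 3 CCAAT boxes between 2 matches of TTTGAA. The windows shown for Kif1a, Cenpb and G2e3 hold neither. In all, 65 of the 74 genes matched a window, and 5 of them had several. TTTGAA was held by 9 of 10 windows of mitotic kinesins, 3 of 4 of checkpoint genes and 4 of 6 of the mitotic kinases, cyclins and survivin. It was held by 1 of 13 windows of transport kinesins and 6 of 21 of centromere proteins, against 17.9% of all 32851 windows in the RefSeq table. The 1 match among transport kinesins was in the downstream window of Kif1a. CCAAT was held by 6 of 10 windows of mitotic kinesins, 4 of 13 of transport kinesins and 14 of 21 of centromere proteins, against 37.4% of all windows. Both motifs together were held by 6 of 10 windows of mitotic kinesins and none of 13 of transport kinesins, against 6.95% of all windows. Of the 12 matches of TTTGAA in mitotic kinesins, 8 began between 100 bases before the start and the end of the window. A match describes the letters and is not a measured binding site.

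**Figure D1:**
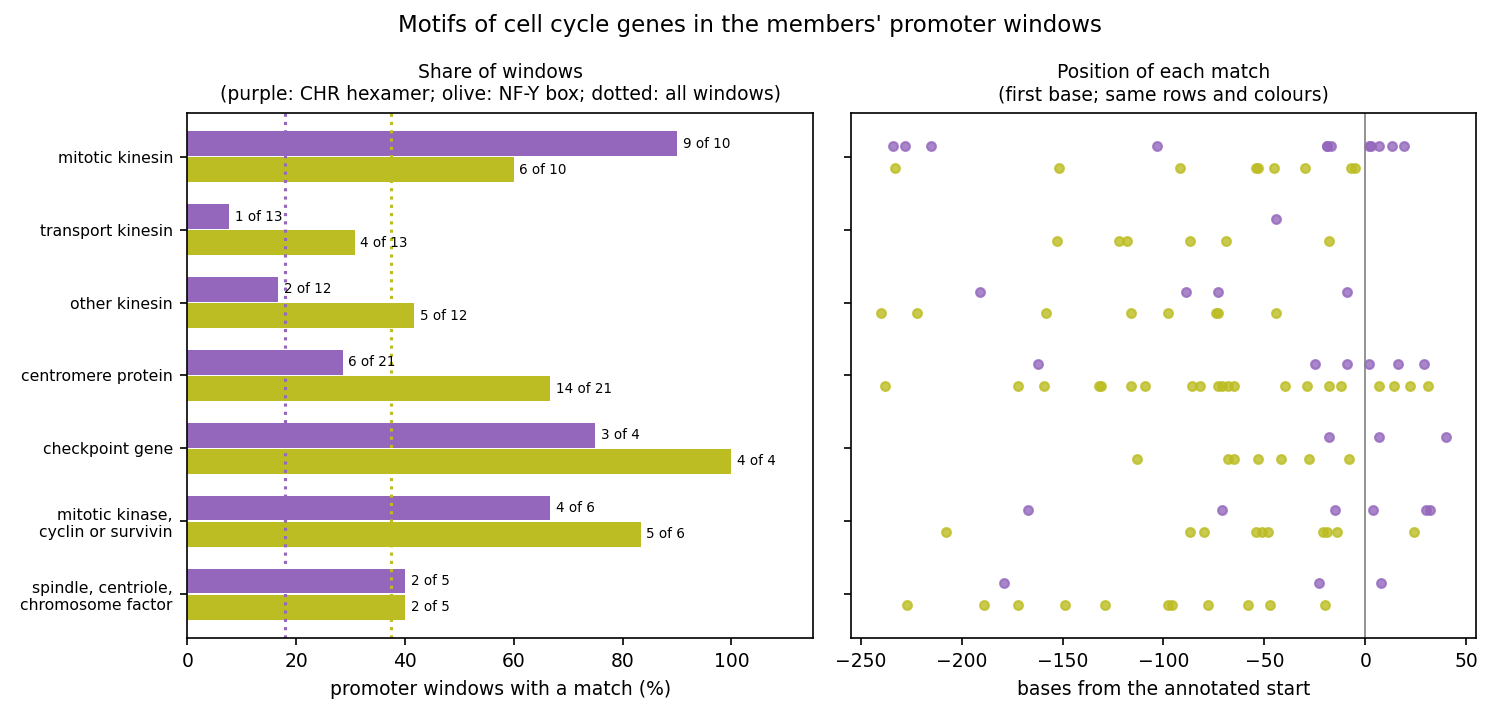
Left, percent of promoter windows of each role that hold TTTGAA (purple) or CCAAT (olive), with the number of windows beside each bar and the share of all 32851 windows as dotted lines. Right, the first base of each match in bases from the annotated start, with 1 row a role. The 10 windows of mitotic kinesins hold TTTGAA in 9 cases, and the 13 of transport kinesins in 1.

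The differences were then set beside the motif. A gene counted as holding TTTGAA if any of its windows did, so Kif1a, at -0.65, counted through its downstream window. The 27 members with TTTGAA had a median difference of -0.11, and 19 of them (70.4%) were lower in the chamber. The 38 without it had a median of -0.02, with 21 (55.3%) lower. Motif and role overlap, since TTTGAA was common in mitotic kinesins and rare in transport kinesins, so this split cannot tell them apart. Of the centromere proteins with TTTGAA, Cenpw was lower, at -0.23. The others (Ndc80, Cenpl, Cenpn, Cenpa and Cenpf) lay between 0.01 and 0.15. Among all genes past the filter that had a window, the medians were -0.02 with TTTGAA (1946 genes, 53.4% lower) and -0.02 without it (10752 genes, 52.9% lower). For CCAAT, the 37 members with it had a median of -0.06 with 22 lower (59.5%). The 28 without it had a median of -0.06 with 18 lower (64.3%). Of all such genes, 53.9% with CCAAT and 52.4% without it were lower.

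All 74 members passed the filter, which kept 19179 genes whose higher array reached the 20th percentile of signal (5.16 for the plate array, 5.17 for the chamber array). None was 2-fold apart, in a comparison where 0.443% of genes were at least 2-fold lower and 0.344% at least 2-fold higher. At a smaller threshold of 0.5 log2 units, 3 members were lower, where the background was 4.24%, and 2 were higher, where it was 3.59%. Both counts are near the background. Counting signs, 46 of 74 members (62.2%) were lower in the chamber, against 52.3% of all genes, and the median difference was -0.06 against -0.01. At 0.25 log2 units, a threshold added after seeing the data, 16 members were lower (21.6%, background 15.0%) and 5 were higher (6.76%, background 12.3%). The absolute difference of 46 members was under the probe set standard deviation of 0.21, and of the rest 21 were lower (28.4%, against 18.7% of all genes) and 7 higher (9.46%, against 15.3%). The members sat mostly at high signal. With all genes cut into 4 equal groups by mean level, 40 members fell in the highest, where differences of all genes had a standard deviation of 0.35, against 0.13 in the lowest. Of these 40 members, 26 were lower in the chamber, against 52.0% of the 4795 genes there. At least 0.25 log2 units lower were 19.8% of all genes in that group and 24.5% in the second highest, which held 21 members. The 21.6% of members lay between these shares, so the background of 15.0% is too low for most members. At least that much higher were 19.4% and 18.2% of all genes in the same groups.

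**Figure D2:**
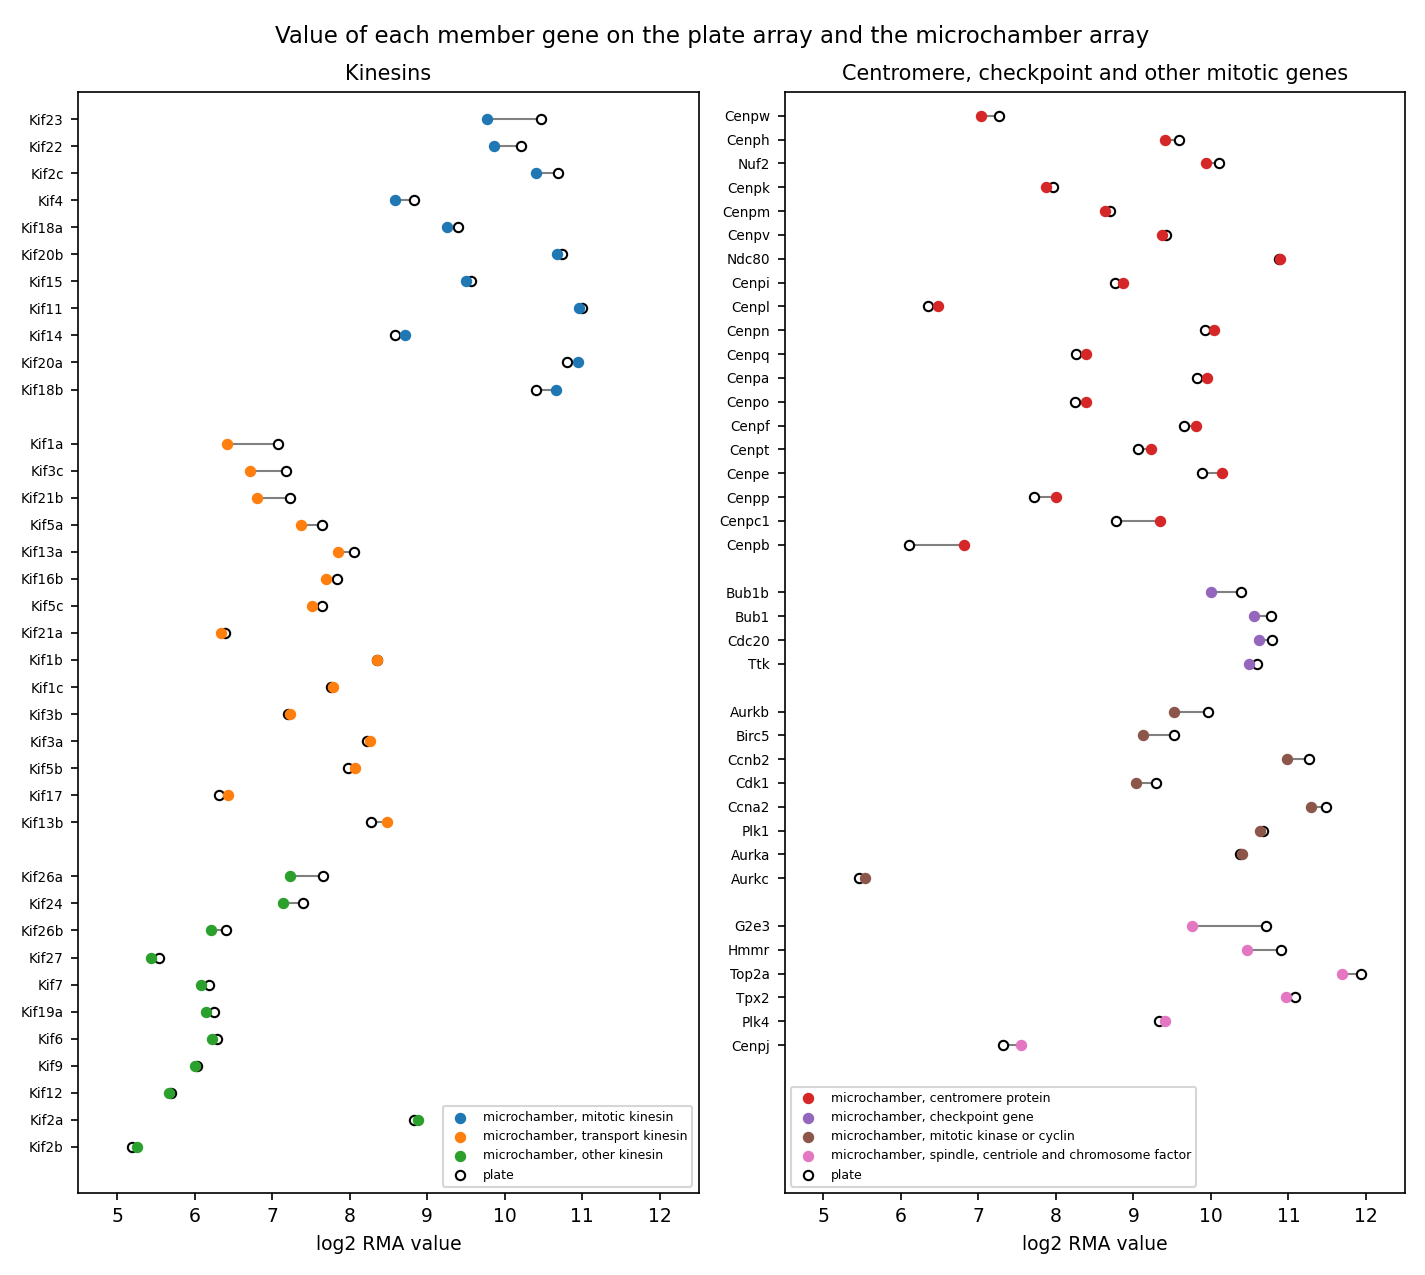
Log2 RMA value of each of the 74 members on the plate array (open circles) and the microchamber array (filled circles, coloured by role), with 1 row a gene and a line joining its 2 values. The longest lines are those of G2e3, Kif23 and Kif1a, lower in the chamber, and of Cenpb and Cenpc1, higher in the chamber.

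Mitotic and transport kinesins had nearly the same median difference. The 11 mitotic kinesins, which act in the spindle, on chromosomes or in cytokinesis, had a median of -0.07, with 8 lower and 3 higher. The 15 transport kinesins had a median of -0.05, with 9 lower and 6 higher. The medians were 0.01 apart, and the means were -0.12 in both classes. The background was a median of -0.01 and 52.3% of genes lower.

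Kif23, the motor of centralspindlin that bundles midzone microtubules for cytokinesis, stood out among the mitotic kinesins. It had a plate value of 10.47 and a chamber value of 9.77, which is 1.63-fold lower and the 308th lowest of 19179 genes. Its gene lies on chromosome 9 (61917277 to 61946810, GRCm38). Racgap1, its partner in centralspindlin and no member, was at -0.17. The chromokinesins, which push chromosome arms away from the poles, were both lower, where 52.3% of all genes were lower. Kif22 had 10.20 and 9.87, plate first, and Kif4 had 8.83 and 8.59.

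The kinesins that shorten microtubules differed in sign. Kif2c, the depolymerase at centromeres, had a plate value of 10.69 and a chamber value of 10.41. Kif18a, which dampens chromosome movement at the metaphase plate, was at -0.14. Kif18b, which acts on astral microtubule ends, had a plate value of 10.40 and a chamber value of 10.66 and was the highest of its class. Of the relatives classed with the remaining kinesins, Kif2a, which works in neurons and the spindle, had a plate value of 8.83 and a chamber value of 8.89, and Kif2b had 5.20 and 5.25, close to the filter.

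The kinesins that keep the spindle bipolar differed little. Kif11, which slides antiparallel microtubules apart, had a plate value of 10.99 and a chamber value of 10.95, and Kif15, which assists it, was at -0.06. The other cytokinesis kinesins lay between -0.07 and 0.14. Kif20a had a plate value of 10.81 and a chamber value of 10.95, Kif14 had 8.58 and 8.71, and Kif20b had 10.74 and 10.68.

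Kif1a led the transport kinesins. It carries synaptic vesicle precursors in neurons and lies on chromosome 1 (93015455 to 93102039). It had a plate value of 7.07 and a chamber value of 6.42, a 1.57-fold lower value that was the 410th lowest of all genes. Its kinesin-3 relatives lay between -0.21 and 0.21. Kif1b and Kif1c, which carry mitochondria and vesicles, were at -0.01 and 0.02. Kif13a and Kif16b, motors of endosomes, were at -0.21 and -0.14, and Kif13b, a vesicle motor, had a plate value of 8.27 and a chamber value of 8.48, the highest difference of the class at 0.21.

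Kif3c, a kinesin-2 subunit, had a plate value of 7.18 and a chamber value of 6.71. A further probe set that it shares with another symbol was also lower, at -0.37. Kif3a and Kif3b, the subunits that carry ciliary cargo, were at 0.03 (8.23 and 8.26 on plate and chamber) and 0.02, while their adaptor Kifap3, no member, was at -0.27. Kif17, a homodimeric relative, had a plate value of 6.32 and a chamber value of 6.43.

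The heavy chains of conventional kinesin differed in sign. Kif5a, mainly of neurons, had a plate value of 7.64 and a chamber value of 7.37. Kif5c, also neuronal, was at -0.13, and Kif5b, the form of most cells, was at 0.10 over 2 probe sets (7.98 and 8.07). These probe sets were at 0.15 for one with plate signal 10.61 and at 0.04 for one with plate signal 5.34, near the filter. Of the light chains, Klc2 was at -0.61 and the other measured ones (Klc1, Klc3 and Klc4) at 0.03 to 0.07. Kif21b had a plate value of 7.23 and a chamber value of 6.81, and its relative Kif21a was at -0.05. Kif21b and the mitotic kinesin Kif14, which was at 0.14, lie 288300 bases apart on chromosome 1.

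The 11 remaining kinesins had a median of -0.11, with 9 lower (81.8%, against 52.3% of all genes) and 2 higher. Several act in cilia, and most had low signals. Kif26a, a kinesin without motor activity, had a plate value of 7.66 and a chamber value of 7.23, and Kif24, a centriole kinesin that holds back cilium formation, had 7.40 and 7.14. Kif26b was at -0.19 (6.40 and 6.21 on plate and chamber). The ciliary kinesins Kif19a, Kif6 and Kif9 lay between -0.11 and -0.03, and Kif9 had a plate value of 6.03 and a chamber value of 6.01. Kif12, a kinesin of epithelia, had 5.70 and 5.67. Kif27 (5.55 and 5.43) was at -0.11 and the Hedgehog pathway kinesin Kif7 at -0.11, but the probe sets of each were unequal, at -0.01 and -0.21 for Kif27 and at -0.24 and 0.02 for Kif7.

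**Figure D3:**
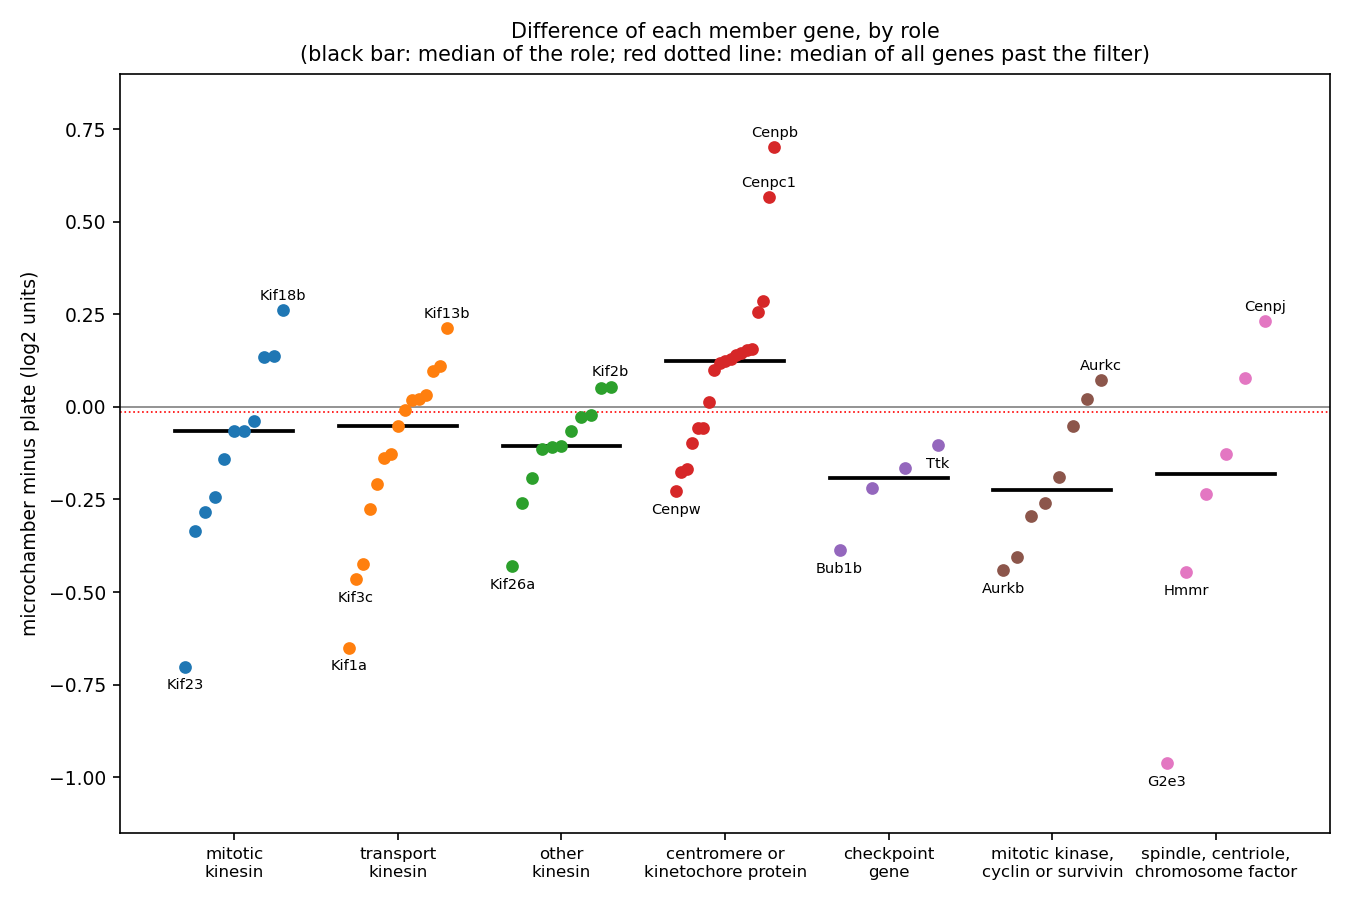
Microchamber minus plate difference in log2 units of each member (points), grouped by role, with the median of each role as a black bar and the median of all 19179 genes as a red dotted line. Centromere proteins have a median of 0.12, while the other 6 roles have medians between -0.22 and -0.05.

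The centromere and kinetochore genes among the members leaned the opposite way. Most of their differences were smaller than the probe set standard deviation of 0.21. Of 19, 13 were higher in the chamber (background 46.9%), with a median of 0.12. By the symbols matched, none was at least 0.25 log2 units lower (background 15.0%) and 4 were at least that much higher (21.1%, background 12.3%). Most of these genes lay in the highest and second highest level groups. There, 19.4% and 18.2% of all genes were at least that much higher, close to the 21.1%, and 19.8% and 24.5% at least that much lower. Of the older symbols described below, Stra13 was at -0.45 and a shared probe set of Mlf1ip at -0.27. The 29 other members with mitotic roles (mitotic kinesins, checkpoint genes, kinases, cyclins and spindle factors) had a median of -0.16. Of these 29, 22 were lower (75.9%, against 52.3% of all genes) and 7 higher. Without the NDC80 complex genes, 12 of 17 Cenp genes were higher, with a median of 0.13. Kinetochore genes that the rule did not match went both ways. Lower were Zwilch at -0.33, Casc5 at -0.26, Kntc1 at -0.13, Spc24 at -0.11, Ska1 at -0.05, Pmf1 at -0.03 and Zw10 at -0.01. Higher were Spc25 at 0.01, Dsn1 at 0.02, Nsl1 at 0.11 and Zwint at 0.36.

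The highest values were those of proteins bound to centromeric chromatin. Cenpb, which binds a short box in satellite DNA, lies on chromosome 2 (131177289 to 131180067). It had a plate value of 6.11 and a chamber value of 6.81, which is 1.63-fold higher and the 278th highest of 19179 genes. Cenpc1, which links centromeric chromatin to the outer kinetochore, lies on chromosome 5 (86012018 to 86065962) and had a plate value of 8.78 and a chamber value of 9.34, 1.48-fold higher. Cenpa, the histone H3 variant that defines the centromere, differed less, with 9.82 and 9.96.

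The inner kinetochore genes are given by subcomplex, a grouping made after the values were seen and not tested, and most of their differences were smaller than the probe set standard deviation of 0.21. Cenpo, Cenpp and Cenpq, parts of 1 subcomplex, were at 0.15, 0.29 and 0.13, and Cenpp had a plate value of 7.72 and a chamber value of 8.01. A probe set that Cenpo shares with Adcy3 was at -0.05, and the shared probe sets of Mlf1ip, an older symbol of their partner Cenpu, were at 0.00 and -0.27. Cenpl and Cenpn, a pair that contacts Cenpa chromatin, were at 0.12 and 0.12. In the subcomplex of Cenph, Cenpi, Cenpk and Cenpm, 3 of 4 were lower, at -0.17 for Cenph (9.58 and 9.41), -0.10 for Cenpk (7.97 and 7.87) and -0.06 for Cenpm, and Cenpi was at 0.10. Cenpt and Cenpw, histone-fold partners, were at 0.16 and -0.23, and Cenpw had a plate value of 7.26 and a chamber value of 7.03.

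The outer kinetochore genes among the members ranged from -0.17 to 0.26. Cenpe, a kinesin that moves chromosomes to the metaphase plate, had a plate value of 9.89 and a chamber value of 10.15, and Cenpf, a large coiled-coil protein, was at 0.15. Ndc80 and Nuf2, which bind microtubule ends together, were at 0.01 and -0.17, and Nuf2 had 10.10 and 9.93. Their partners Spc24 and Spc25, no members, were at -0.11 and 0.01. Cenpv, a centromere-associated protein, was at -0.06.

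Some centromere genes are on the array under older symbols that the rule did not match. Apitd1, listed as a synonym of Cenps, was at -0.04. Stra13, a synonym of Cenpx that the table also lists for other genes, had a plate value of 8.91 and a chamber value of 8.45. Mlf1ip, a synonym of Cenpu, appeared only in a pair of probe sets shared with another symbol, at 0.00 and -0.27. With Apitd1 and Stra13 counted in, the class median was 0.12.

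**Figure D4:**
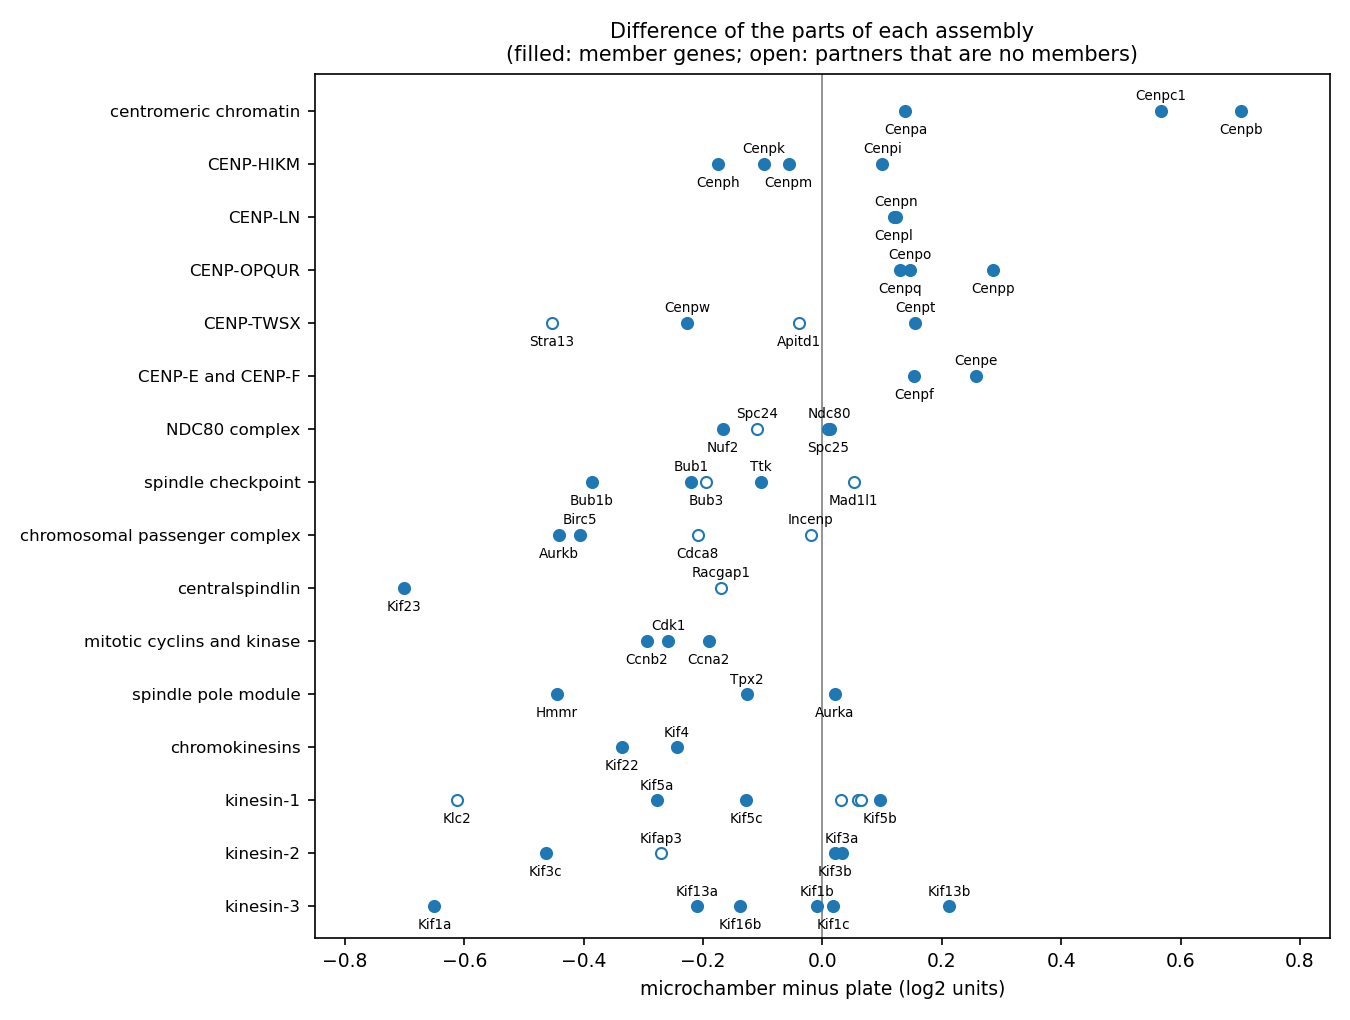
Microchamber minus plate difference in log2 units for the parts of named assemblies, 1 row each, with filled points for members and open points for partners that are no members. The points drawn for centromeric chromatin, CENP-LN and CENP-OPQUR lie to the right of 0, with the shared probe sets of Mlf1ip (0.00 and -0.27) and of Cenpo (-0.05) not drawn, and those of the chromosomal passenger complex, the mitotic cyclins and kinase and the chromokinesins lie to the left. The unlabelled points of kinesin-1 are Klc1, Klc3 and Klc4.

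The 4 checkpoint genes were all lower in the chamber, where 52.3% of all genes were lower. Their median was -0.19, and none reached 0.5 log2 units. Bub1b, whose product BubR1 inhibits the anaphase-promoting complex, had a plate value of 10.38 and a chamber value of 9.997. Bub1, a kinase at kinetochores, had 10.78 and 10.56. Cdc20, the activator of that complex and the target of the checkpoint, had 10.79 and 10.62. Ttk, the kinase that starts checkpoint signalling, had 10.59 and 10.49. Of the checkpoint partners that are no members, Bub3 was at -0.20 and Mad1l1 at 0.05.

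Mitotic cyclins and their kinase were each lower by small amounts, where 52.3% of all genes were lower. Ccnb2, a B-type cyclin, had a plate value of 11.27 and a chamber value of 10.97, Cdk1, the kinase it activates, had 9.29 and 9.04, and Ccna2, the A-type cyclin of S phase and G2, had 11.48 and 11.29. Ccnb1, the other B-type cyclin, was measured only by a probe set shared with a predicted gene, which was at -0.15.

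The chromosomal passenger complex corrects wrong attachments at centromeres. Its kinase Aurkb had a plate value of 9.96 and a chamber value of 9.52, and its subunit Birc5 (survivin) had 9.52 and 9.12. The partners Cdca8 and Incenp, no members, were at -0.21 and -0.02. Plk1, the polo kinase of mitotic entry, had 10.68 and 10.63. Aurka, the spindle pole kinase, had 10.38 and 10.40, and Aurkc, which acts in germ cells, had 5.46 and 5.53 over 2 probe sets, close to the filter. Over these kinases, cyclins and Birc5, 6 of 8 were lower (75.0%, against 52.3% of all genes) and the median was -0.22.

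G2e3, a ubiquitin ligase named for its peak in G2 and mitosis, had the lowest difference of all members. It had a plate value of 10.72 and a chamber value of 9.75, which is 1.95-fold lower and the 95th lowest of 19179 genes, and its gene lies on chromosome 12 (51348230 to 51376986). Hmmr, a spindle pole protein, had 10.90 and 10.46. Tpx2, which activates Aurka at the spindle, had 11.09 and 10.96.

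Top2a, the topoisomerase that untangles sister chromatids, gave unequal probe sets. Its own probe set had a plate value of 11.93 and a chamber value of 11.70, while a pair of probe sets shared with Taf1d were higher in the chamber, at 0.22 and 0.21. The centriole genes of this class were both higher, where 46.9% of all genes were higher. The centriole kinesin Kif24, given above, was lower, at -0.26. Plk4, the kinase of centriole duplication, had 9.33 and 9.41, and Cenpj, a centriole protein despite its name, had a plate value of 7.31 and a chamber value of 7.54.

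A longer list of other mitotic genes was set beside the members. Of 57 measured, 35 (61.4%) were lower, against 52.3% of all genes, with a median of -0.03. Only Nusap1, a spindle microtubule bundler, was 0.5 log2 units lower, at -0.51, followed by the phosphatase Cdc25c at -0.49, Cdca3 at -0.42 and the securin Pttg1 at -0.37. The highest were the cytokinesis kinase Cit at 0.68, the cohesin protector Sgol1 at 0.49, the kinetochore protein Zwint at 0.36 and the condensin subunit Ncapg2 at 0.31. The transcription factors Foxm1 and Mybl2, which drive G2 and mitotic genes, were named after their values were seen and were at 0.24 and 0.27.

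Genes of G1/S and replication had a lower median than the 74 members, which include transport kinesins and centromere proteins. Their median was close to the -0.16 of the 29 mitotic members outside the centromere class. Of 50, 38 (76.0%) were lower, against 52.3% of all genes, and the median was -0.17. By at least 0.25 log2 units, 16 (32.0%) were lower, against 15.0% of all genes and 19.8% of those in the highest level group. Their lowest were the D-type cyclin Ccnd2 at -1.10, the thymidine kinase Tk1 at -0.82, Ccnd3 at -0.78 and the E-type cyclin Ccne1 at -0.67, and their highest were E2f3 at 0.37, Fen1 at 0.31, Chaf1a at 0.21 and Pole at 0.18. Partners of transport motors (light chains, dynein and dynactin) showed no lean in sign, with 16 of 31 lower (51.6%, against 52.3% of all genes). Their median was -0.01. By at least 0.25 log2 units, 9 (29.0%) were lower and 6 (19.4%) higher, against 15.0% and 12.3% of all genes. Their median levels were 8.20 (plate) and 7.92 (chamber), in the range of the second highest level group. In that group, 24.5% of all genes were that much lower and 18.2% that much higher. They ranged from Klc2 at -0.61, the ciliary protein Ift88 at -0.60 and the dynactin subunits Dctn1 at -0.45 and Dctn2 at -0.44 to Trak2 at 0.57, Bicd1 at 0.52, the dynein heavy chain Dync1h1 at 0.47 and Dctn4 at 0.40.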

How the data were processed

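Total RNA was measured on 1 array a group, and the labels do not say how many cultures each RNA came from. Per the series design text, the authors applied background correction, summarisation, log2 transformation and RMA normalization, with a lower limit at the 20th percentile of raw signal, and deposited log2 values for transcript clusters, called probe sets here. The notes on processing name 3 tools: RMA, Transcriptome Analysis Console (3.0) and Affymetrix Expression Console (1.4.1). Per the file headers, the annotation is mm10. The authors' deposited table also gives a log2 fold change (plate minus chamber) and an absolute fold as a ratio. The deposited fold change equalled the difference of the 2 log2 values within 1e-05 in all 33793 probe sets. RMA gives both arrays the same distribution, so a shift of most genes would not be seen, and the number of arrays limits the precision.

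Probe sets with 1 symbol (24708) were averaged per gene. Probe sets with several symbols (2305), none (6756) or a symbol turned into a date (24) were left out. Genes were kept where the higher of their values reached that array's 20th percentile, taken over probe sets that carry any symbol. No test across genes was run, since each group has 1 array. The computation of differences was tested on simulated data with a planted shift. Members, roles and lists were chosen with earlier results of these data known. Named genes are the members, with both array values for the 4 lowest and highest of each role, and the 4 lowest and highest of each further list. Motifs were searched in RefSeq promoter windows (GRCm38.p6) with Python 3.11.15 and pandas 2.3.3. Alternatives tried: dropping the filter, raising it to the median, centring, removal of a loess trend (statsmodels 0.14.6), the brightest probe set, shared probe sets, the series value table, list means and Kif2a as a mitotic kinesin.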

Additional observations from a re-analysis of the deposited data

How the results depend on the processing

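No paired analysis was possible because each group has 1 array. The medians of all members, mitotic kinesins, transport kinesins, centromere proteins and checkpoint genes and the counts of lower members were recomputed, and those of the other roles were not. They kept their sign, and moved by no more than 0.05 log2 units or 1.5 times, under no filter, a filter at the median (69 members), centring, a loess trend removed, the brightest probe set, shared probe sets and the series value table. Kif2a as a mitotic kinesin was tried for the mitotic kinesin median and its gap to transport kinesins, with the same outcome. The limit of 0.05 is close in size to the medians of all members and of both kinesin classes, so it says little of them. With the loess trend removed, the median of transport kinesins went from -0.05 to -0.02. The gap between the medians of mitotic and transport kinesins went from -0.01 to -0.03. With the mean in place of the median, mitotic kinesins were at -0.12 and transport kinesins at -0.12, and their main difference of -0.01 turned to 0.0019. The order of the 2 kinesin classes therefore depends on the summary used. At 0.25 log2 units, added after seeing the data, 16 members were lower in place of 3 at 0.5 log2 units. Differences near the filter are compressed by low signal, so small values of Kif2b, Kif27, Aurkc and Kif12 do not show unchanged expression.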
